A study of Mus musculus with 16 samples.

Results

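The cytosolic ribosomal protein genes encode the protein parts of the ribosome that translates nuclear messenger RNA. They were chosen by name and biotype alone: protein-coding genes of the mouse count table named Rpl or Rps with a number, an optional letter and an optional copy number, together with Rplp0, Rplp1, Rplp2 and Rpsa, and without the S6 kinases. The rule found 83 of the 55487 genes of the table, 32 of the small and 51 of the large subunit, and used no expression value. Of these, 81 passed the filter on low counts and were tested. Rpl39l and Rpl10l, both known as copies used mainly in the testis, did not pass, with 18 and 3 counts over all 16 samples.

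RNA sequencing was done on 16 samples of mouse mammary organoids, multicellular structures grown in culture with EGF at 50 ng/ml and Rspo1-Noggin conditioned medium at 10%. There were 3 wild-type (WT) samples, 4 with mutant PIK3CA, 4 with mutant HER2 and 5 with both mutations, called the double mutant here. The series title gives the alleles as HER2 V777L, in a receptor tyrosine kinase, and PIK3CA H1047R, in a catalytic subunit of phosphoinositide 3-kinase, and sets the question of how they act together in tumor growth. By their labels, the WT cultures derive from normal breast and the 13 mutant ones from breast tumors, so mutation and tissue source cannot be told apart in any comparison with WT. They name no promoter, Cre line, age or strain, and nothing in them says that replicates are separate animals, so p-values measure only the spread between these samples, which may be technical.

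Each ribosome carries 1 copy of nearly every ribosomal protein, and their messenger RNAs are among the most abundant of a growing cell. Phosphoinositide 3-kinase signalling reaches them through mTORC1, a growth-controlling kinase, mainly by translation. Most of their messenger RNAs begin with a C followed by an unbroken run of pyrimidines, the 5′ terminal oligopyrimidine (TOP) motif, which the protein Larp1 binds when mTORC1 is off. MYC is known to raise their transcription and that of ribosome assembly genes.

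The start of the transcript is shown because it is the feature that ties these genes to mTORC1. Promoter sequences of RefSeq (GRCm38.p6) matched 63 of the 83 genes. Each line gives 10 bases before the annotated start and 20 from it, 5′ to 3′, with the pyrimidine run at or near the start in capitals:
Rps6 (chr4:86857348-86857377, minus strand): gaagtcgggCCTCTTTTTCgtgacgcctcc
Rps27 (chr3:90213629-90213658, minus strand): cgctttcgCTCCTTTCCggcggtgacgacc
Rpl15 (chr14:18270967-18270996, minus strand): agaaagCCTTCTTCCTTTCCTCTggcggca
Rplp2 (chr7:141447641-141447670, plus strand): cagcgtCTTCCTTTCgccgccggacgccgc
Rpl13a (chr7:45128726-45128755, minus strand): cctgcgacaagaCCTCCTCCTTTCCCaggc
Rpl31 (chr1:39367841-39367870, plus strand): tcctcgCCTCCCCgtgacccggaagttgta
Rps27l (chr9:66946076-66946105, plus strand): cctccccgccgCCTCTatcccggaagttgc
Rpl22l1 (chr3:28805498-28805527, plus strand): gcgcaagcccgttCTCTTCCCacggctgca
Rpl7l1 (chr17:46782637-46782666, minus strand): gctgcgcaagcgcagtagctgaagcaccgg
Rpl3l (chr17:24727816-24727845, plus strand): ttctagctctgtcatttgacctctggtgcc
Rps4x (chrX:102189372-102189401, minus strand): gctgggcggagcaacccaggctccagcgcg
The first 8 lines hold such a run and the last 3 hold none. The run of Rps27l is the shortest of these 8, at 5 bases, and that of Rpl15 the longest, at 17. For Rps27l and Rpl3l the table lists another start, which holds no run. A run is absent at the annotated starts of other genes of the set too, among them Rplp0, Rpl5, Rpl11 and Rpsa.

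A C directly at the annotated start and followed by 4 pyrimidines was found in 13 of the 63 genes (20.6%) and in 2.97% of 26962 other genes. With a wider rule, C and 7 pyrimidines beginning within 5 bases of the start, it was 21 genes (33.3%) against 5.11%. Both rules read the gene's own strand only. Annotated starts can lie a few bases from the true cap site, so these shares describe the annotation. In the window of 250 bases before to 50 after the start, on both strands, CCGGAAG, the core bound by ETS factors such as GABPA, was in 26 genes (41.3%) against 9.85%. AAGATGGCG, the core of the YY1 motif, was in 4 (6.3%) against 1.63%, and TATAAA, the TATA box, in 7 (11.1%) against 15.7%. A match is a description of letters and shows no binding.

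Total counts per sample were 45545182 to 64168308, and the 3 counts taken as the detection floor corresponded to 0.0468 to 0.0659 CPM (counts scaled to the sample's total). The epithelial genes Krt8, Krt18 and Epcam were present in all samples, at 266 to 1220, 340 to 1590 and 479 to 699 CPM. WT samples also held markers of other cells. The summed level of 8 immune markers was 505 to 3011 CPM in WT and 9.87 to 184 CPM in the mutants, and that of 7 fibroblast markers was 352 to 1940 CPM in WT and 26.6 to 639 CPM in the mutants. Lyz2 alone averaged 1390 CPM in WT, where the immune sum averaged 1606 CPM. Cd3e of the immune list was higher in HER2 mutant organoids than in WT (0.78 against 0.425 CPM). Summed luminal markers were 1783 to 2128 CPM in WT and 1869 to 4729 CPM in the mutants. Esr1 of this list was lower in the mutants, at group means of 18.1 to 22.7 CPM against 35.2 CPM in WT. Krt19 was lower in HER2 mutant organoids only (159 against 198 CPM). Summed basal markers were 382.5 to 934.6 CPM in WT and 415.3 to 1331 CPM in PIK3CA mutant organoids. They were 130.6 to 922.5 CPM in HER2 mutant and 538.9 to 985.1 CPM in double mutant organoids. The basal genes did not move as one. Myh11 was lower in the mutants, at group means of 1.23 to 3.45 CPM against 8.62 CPM in WT. Krt17 was higher in them, at 40 to 71 CPM against 12.3 CPM. Krt5 was lowest in HER2 mutant organoids (34.1 CPM, against 252 CPM in WT). The part of these cell types in the results below was not tested. In bulk RNA, fewer cells of a type and less RNA per cell cannot be told apart. Gene counts do not show a point mutation itself, and the labels do not say how the mutations were introduced. The labels were not checked on the mutated genes.

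Within the ribosome set, levels per length of transcript were among the highest for Rpl10, at 1051 CPM per kb, and Rpl41, at 968. Both are of the large subunit, and each value is a mean over all 16 samples. Although a ribosome holds nearly all its proteins in equal number, the counts were far from equal. Leaving out the copies named after a parent gene, 77 tested genes remained, and 3 of them lay far below the others on the CPM scale. Rpl24 averaged 1.47 CPM, Rps10 4.46 CPM and Rpl13a 11.96 CPM, while the lowest of the other 74 was at 58.3 CPM. These 3 genes are also the only ones of the 77 whose largest overlap of exon bases on the same strand is with an annotated gene other than a small RNA. The shared part was 47.0% of Rpl24, with Gm28037, 20.6% of Rps10, with RPS10-NUDT3, and 35.4% of Rpl13a, with Gm45713. How reads in shared exons were assigned is not given in the sources used here, so the counts of these 3 genes are reported as uncertain.

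Near-identical copies elsewhere in the genome touch most of the set. In the GENCODE M21 transcripts, the median gene shared 55.5% of its 50-base stretches with transcripts of other genes, 49 genes shared over 50%, and 3 shared none. Rps27 shared 98.6%, mostly with Rps27rt. The table names 311 pseudogenes of ribosomal proteins, whose summed counts were 0.0437% to 0.0819% of a sample's total, against 2.03% to 3.69% for the 83 genes. Of the tested genes, 32 shared at most 50% of their stretches, and Rpl24, Rps10 and Rpl13a are not among them. The median log2 fold changes of these 32 against WT were 0.36, 0.35 and 0.40 in PIK3CA mutant, HER2 mutant and double mutant organoids. For the other 49 genes they were 0.34, 0.29 and 0.38, so the medians of genes with few and with many shared stretches were close.

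As a share of all counts, the 83 genes made up 2.03%, 2.53% and 2.14% of the 3 WT samples. They made up 2.64%, 2.86%, 2.43% and 2.85% in PIK3CA mutant and 2.75%, 3.03%, 2.62% and 2.47% in HER2 mutant organoids. Double-mutant shares were 3.09%, 3.69%, 2.28%, 2.34% and 2.25%. The means were 2.23% ± 0.264 (SD, n = 3) in WT, 2.69% ± 0.204 (SD, n = 4), 2.72% ± 0.239 (SD, n = 4) and 2.73% ± 0.641 (SD, n = 5). WT replicate 2 overlapped the range of every mutant group. Replicates 1 and 2 of the double mutant lay above all WT and PIK3CA mutant samples, while its other 3 lay within the WT range. The 95% Wilson intervals of single samples, which cover counting error only, were at most 0.00517 percentage points to either side. Double-mutant replicate 2 also had the highest summed luminal markers of all samples, 4729 CPM.

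**Figure D1:**
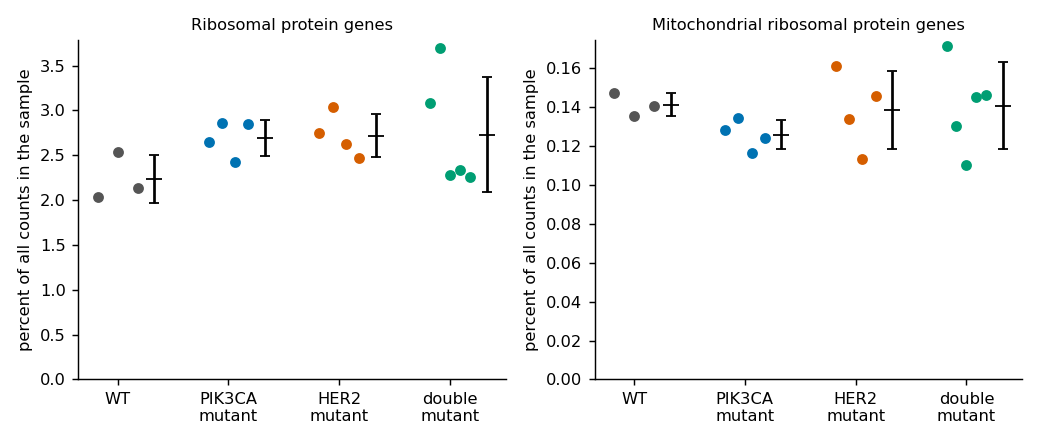
Percent of all counts in each sample that fell on the 83 cytosolic ribosomal protein genes (left) and on the 78 mitochondrial ribosomal protein genes (right), by genotype; points are samples, and the bar beside them is the mean with 1 SD. Double-mutant replicates 1 and 2 stand at 3.09% and 3.69% on the left, and on the right all groups lie between 0.11% and 0.171%.

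The large subunit took up a little more of the set in the mutants. The ratio of large-subunit to small-subunit counts was 1.46 to 1.49 in WT, 1.54 to 1.56 in PIK3CA mutant, 1.498 to 1.539 in HER2 mutant and 1.54 to 1.59 in double mutant organoids. The WT range did not overlap those of the mutants.

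Against WT, most ribosomal protein genes had positive log2 fold changes in each mutant genotype, while few single genes passed the test. The median over the 81 tested genes was 0.35 in PIK3CA mutant, 0.31 in HER2 mutant and 0.38 in double mutant organoids, where the medians of all 24252 genes tested were -0.03, 0.03 and 0.01. Without double-mutant replicate 2 the double-mutant median was 0.22. On a linear scale these medians were 1.27-fold, 1.24-fold and 1.30-fold. Positive values were found for 76, 74 and 73 of the 81, or 93.8%, 91.4% and 90.1%, against 47.5%, 52.2% and 50.8% of all genes. The small-subunit medians were 0.33, 0.30 and 0.33 and the large-subunit medians 0.39, 0.32 and 0.40. The 3 comparisons share the same 3 WT samples and are not independent of one another. All 3 came from normal breast and carried the immune and fibroblast markers given above.

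**Figure D2:**
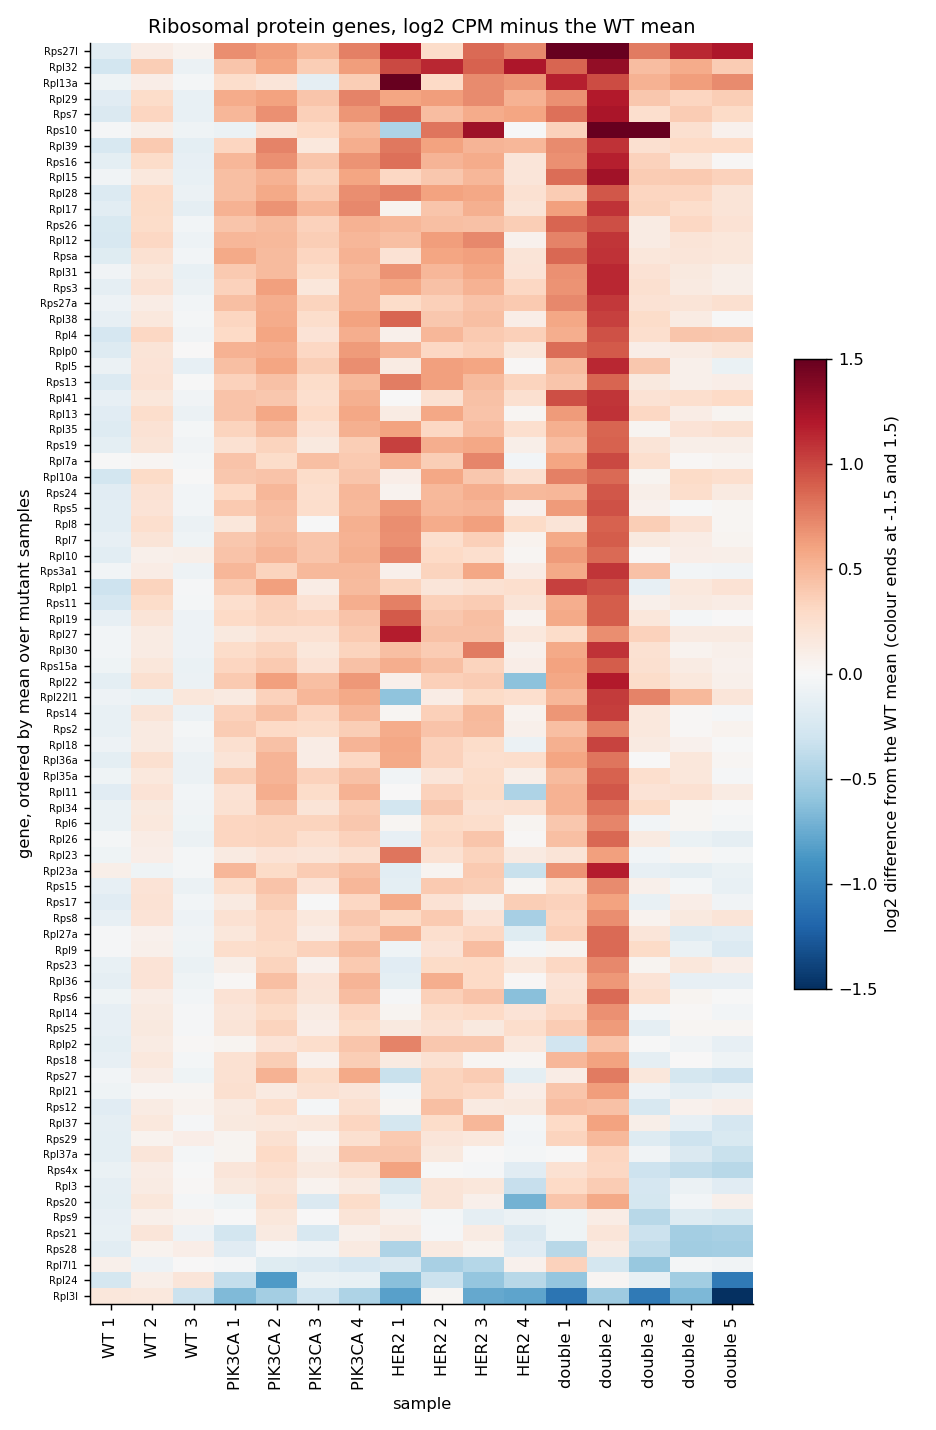
Log2 CPM of the tested genes (lines, 1 gene left out, ordered by their mean over the mutant samples) in each of the 16 samples (columns), minus the mean of the 3 WT samples; red is above and blue below WT. Rps27l, Rpl32 and Rpl13a are at the top, double-mutant replicate 2 is red in most lines, and Rpl24 and Rpl3l are at the bottom.

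In PIK3CA mutant organoids, 0 of the 81 genes passed an adjusted p of 0.05 in edgeR's quasi-likelihood test, where 4.52% of all genes tested did. At an unadjusted p under 0.05 there were 17 (21%), against 16.8% of all genes, and DESeq2 and limma also called 0. When only the samples of these 2 genotypes were fitted, 36 were called, and the count over all genes went from 1096 to 4136. In 46 of the 81 (56.8%), all 4 PIK3CA mutant samples lay above all 3 WT samples, which held for 13.8% of all genes. Rps27l had a positive value of 0.64 (SE 0.208, adjusted p = 0.102). The values furthest from 0 on the negative side were -0.50 (SE 0.341, adjusted p = 0.516) for Rpl3l and -0.33 (SE 0.279, adjusted p = 0.611) for Rpl24.

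In HER2 mutant organoids, Rpl32, Rps27l and Rpl13a rose and 0 of the 81 fell, where 10.4% of all genes passed, 4.75% as higher and 5.63% as lower. The called share of the set, 3.7%, was thus no larger than that of all genes. At an unadjusted p under 0.05 there were 19 genes (23.5%), against 25.7% of all genes. In 19 of the 81 (23.5%) all HER2 mutant samples lay above WT, against 9.81% of all genes. The count was 0 without WT replicate 3 and 6 without HER2 replicate 4. It was 1 without WT replicate 1, HER2 replicate 1 or HER2 replicate 3. Over all genes the count went from 2518 to 733 without WT replicate 3 and to 1154 without WT replicate 1. It was 2397, 1880 and 2547 without HER2 replicates 1, 3 and 4.

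Rps27l, Rpl32, Rpl15 and Rpl29 rose in the double mutant and 0 fell, where 11.8% of all genes passed, 5.03% as higher and 6.72% as lower. The called share of the set, 4.94%, was below the 11.8% of all genes and close to the share called as higher. An unadjusted p under 0.05 was found for 30 genes (37%), against 27.1% of all genes. DESeq2 called 9 as higher and 1 as lower, and 3978 over all genes. In 9 of the 81 (11.1%) all double-mutant samples lay above WT, near the 9.68% of all genes. The count was 1 without WT replicate 1 or WT replicate 3 and 8 without double-mutant replicate 3. Over all genes it went from 2850 to 1591, 1173 and 2569 in these fits. Without double-mutant replicate 2, the library with the highest share of ribosomal protein counts, 3 of the 81 were called higher and 2 lower. Rpl3l was among the latter at -1.15 (adjusted p = 0.0429), and 2236 of all genes were called. In 5 genes, Rps27l, Rpl15, Rpl29, Rpl27 and Rps27a, all 13 mutant samples lay above all WT samples, which held for 2.61% of all genes. In 0 genes did all 13 lie below, against 4.69% of all genes.

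**Figure D3:**
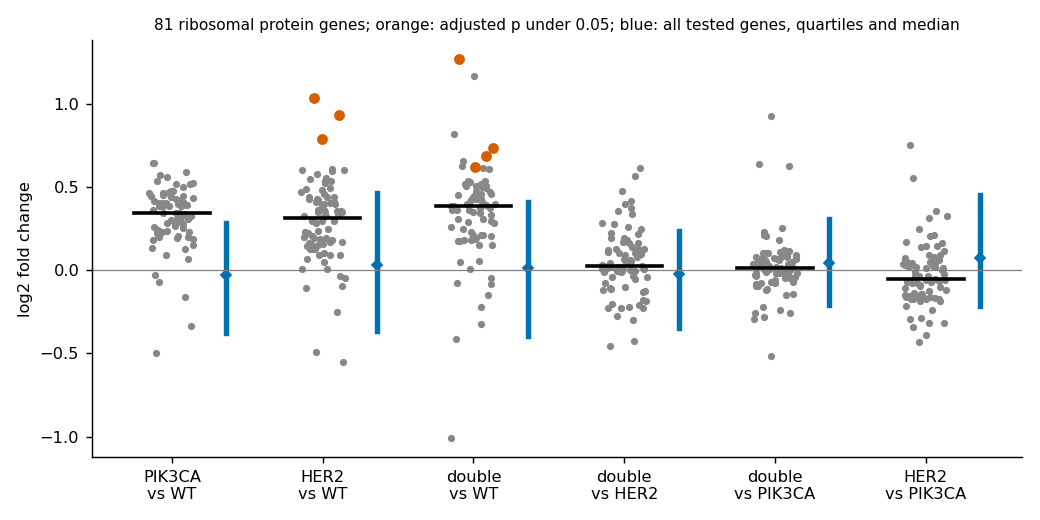
Log2 fold changes of the 81 tested genes in the 6 comparisons of genotypes; grey points are single genes, orange points those with an adjusted p under 0.05, the black line their median, and the blue diamond and bar the median and quartiles of all 24252 tested genes. The medians are 0.35, 0.31 and 0.38 against WT and between -0.05 and 0.03 among the mutants.

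Rps27l, a paralog of Rps27 known as a target gene of p53, differed most in the double mutant. Its gene lies at chr9:66946086-66949516 (GRCm38, plus strand). Its level was 14.4, 17.4 and 16.6 CPM in WT and 26.2, 24.8, 22.6 and 27.1 CPM in PIK3CA mutant organoids. It was 36.5, 19.4, 29.0 and 26.4 CPM in HER2 mutant and 48.5, 45.5, 27.7, 35.2 and 37.1 CPM in double mutant organoids. All 13 mutant samples were above WT, and all double-mutant samples were above all PIK3CA mutant samples. The log2 fold change against WT in the double mutant was 1.27 (SE 0.206, adjusted p = 0.000996), a 2.40-fold rise, and the call held in all 8 fits that left out a sample and in all 11 other alternatives. In HER2 mutant organoids it was 0.79 (SE 0.209, adjusted p = 0.0268), and 5 of the 7 fits without 1 sample lost the call, with adjusted p up to 0.118 without WT replicate 1. It was also lost in 3 of the 11 other alternatives, the replicate block (0.0627), block with a length and GC offset (0.0855) and only these 2 genotypes (0.106). Between the double mutant and PIK3CA mutant organoids it was 0.62 (SE 0.182, adjusted p = 0.152), and against HER2 mutant organoids 0.48 (SE 0.181, adjusted p = 0.171).

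Rps27, the parent gene of the small subunit, lies at chr3:90212522-90213651 (minus strand). Its level was 107, 119 and 105 CPM in WT, 130, 159, 134 and 164 CPM in PIK3CA mutant, 87.8, 139, 144 and 99.5 CPM in HER2 mutant and 119, 189, 124, 91.6 and 89.1 CPM in double mutant organoids. The HER2 mutant and double mutant ranges held the WT range within them. The log2 fold change was 0.41 (SE 0.235) in PIK3CA mutant, 0.09 (SE 0.234) in HER2 mutant and 0.15 (SE 0.224) in double mutant organoids, with adjusted p of 0.42, 0.85 and 0.717. Per length, Rps27l stood at 10.7% to 12.6% of Rps27 in WT and 12.5% to 16.1% in PIK3CA mutant organoids. In HER2 mutant organoids it stood at 33.2%, 11.1%, 16.1% and 21.2%, and in the double mutant at 32.5%, 19.2%, 17.8%, 30.7% and 33.3%, above the WT and PIK3CA mutant ranges. This ratio was taken after the values were seen and has no test. Since Rps27 shares nearly all its sequence with Rps27rt, its counts are uncertain.

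The coding sequences show how far the reads of this pair can be told apart. In GENCODE M21 transcripts both have an open reading frame of 255 bases, identical at 194 positions (76.1%), and share 0 stretches of 50 bases. The differing bases are in capitals:
Rps27: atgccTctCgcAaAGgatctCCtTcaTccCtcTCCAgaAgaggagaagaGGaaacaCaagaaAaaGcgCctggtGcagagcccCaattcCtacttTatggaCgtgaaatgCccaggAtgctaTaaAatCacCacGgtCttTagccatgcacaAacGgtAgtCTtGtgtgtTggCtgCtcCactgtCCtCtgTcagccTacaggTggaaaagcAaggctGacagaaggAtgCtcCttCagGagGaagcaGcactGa
Rps27l: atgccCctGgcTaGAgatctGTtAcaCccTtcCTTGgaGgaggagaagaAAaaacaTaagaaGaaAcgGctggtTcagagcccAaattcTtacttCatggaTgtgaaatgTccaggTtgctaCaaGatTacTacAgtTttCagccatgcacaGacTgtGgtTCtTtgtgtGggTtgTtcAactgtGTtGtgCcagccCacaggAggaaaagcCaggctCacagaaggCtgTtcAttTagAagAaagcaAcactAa
Over its whole transcript, Rps27l shared 13.7% of its 50-base stretches with any other gene, among the lower values of the set.

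Rpl32, a large-subunit protein gene at chr6:115805505-115808747 (minus strand), was the highest of the set in HER2 mutant organoids by fold change. Its level was 138, 216 and 158 CPM in WT, 224, 253, 216 and 259 CPM in PIK3CA mutant, 334, 366, 310 and 388 CPM in HER2 mutant and 307, 418, 231, 246 and 219 CPM in double mutant organoids. All HER2 mutant samples were above all WT and PIK3CA mutant samples. The log2 fold change against WT was 1.03 (SE 0.214, adjusted p = 0.00772) in HER2 mutant and 0.73 (SE 0.204, adjusted p = 0.0284) in double mutant organoids, and 0.48 (SE 0.210, adjusted p = 0.252) in PIK3CA mutant organoids. Without WT replicate 3 the HER2 value became 0.98 (adjusted p = 0.0524), and without WT replicate 1 or 3 the double-mutant adjusted p was 0.153 or 0.14. With only WT and double mutant organoids fitted, the double-mutant adjusted p was 0.0779. An exon of Rpl32 holds a small nucleolar RNA on the same strand, Snora7a, over 14.5% of its exon bases, the largest such share in the set.

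Rpl15, a large-subunit protein gene mutated in some cases of Diamond-Blackfan anemia, lies at chr14:18267823-18271391 (minus strand). Its level was 185, 214 and 178 CPM in WT, 263, 274, 242 and 290 CPM in PIK3CA mutant, 237, 254, 271 and 218 CPM in HER2 mutant and 341, 459, 249.8, 252 and 243 CPM in double mutant organoids. Every mutant sample was above every WT sample, although HER2 replicate 4 and WT replicate 2 were only a few CPM apart. The log2 fold change was 0.69 (SE 0.189, adjusted p = 0.0275) in the double mutant. The adjusted p was 0.111 without WT replicate 1, 0.14 without WT replicate 3 and 0.0785 when only WT and double mutant organoids were fitted. The log2 fold change was 0.47 (SE 0.195, adjusted p = 0.218) in PIK3CA mutant and 0.35 (SE 0.195, adjusted p = 0.277) in HER2 mutant organoids.

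Rpl29, also of the large subunit, lies at chr9:106429454-106431568 (plus strand), and was named after its value was seen, since 4 genes passed. Its level was 119, 163 and 124 CPM in WT, 198, 203, 179 and 224 CPM in PIK3CA mutant, 202, 207, 219.8 and 192 CPM in HER2 mutant and 216, 306, 177, 168 and 173 CPM in double mutant organoids. WT replicate 2 lay closest to the mutants. The log2 fold changes were 0.57 (SE 0.191, adjusted p = 0.114), 0.60 (SE 0.191, adjusted p = 0.0564) and 0.62 (SE 0.184, adjusted p = 0.0380) in PIK3CA mutant, HER2 mutant and double mutant organoids. They were of nearly one size, and only the last passed. Of the 8 fits without 1 sample, 4 lost it. These were the fits without WT replicate 1 (adjusted p = 0.171), WT replicate 3 (0.177), double-mutant replicate 1 (0.0563) or double-mutant replicate 2 (0.0561). It was also lost when only WT and double mutant organoids were fitted (adjusted p = 0.0964).

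Rpl13a, whose protein is also known for its part in silencing inflammatory transcripts, lies at chr7:45125558-45128761 (minus strand) and is one of the 3 genes with uncertain counts. Its level was 7.60, 8.53 and 7.81 CPM in WT, 9.54, 9.07, 7.26 and 10.3 CPM in PIK3CA mutant, 25.5, 9.77, 13.04 and 12.6 CPM in HER2 mutant and 17.8, 15.7, 11.46, 12.3 and 12.99 CPM in double mutant organoids. HER2 replicate 1 was far above the rest of its group. The log2 fold change in HER2 mutant organoids was 0.93 (SE 0.274, adjusted p = 0.0413), and 0.56 (adjusted p = 0.0845) without HER2 replicate 1. Of the 7 fits that left out 1 sample, 5 did not keep the call, nor did 6 of the 11 other alternatives, with adjusted p up to 0.163 when only these 2 genotypes were fitted. The double-mutant value was 0.82 (SE 0.264, adjusted p = 0.0558).

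**Figure D4:**
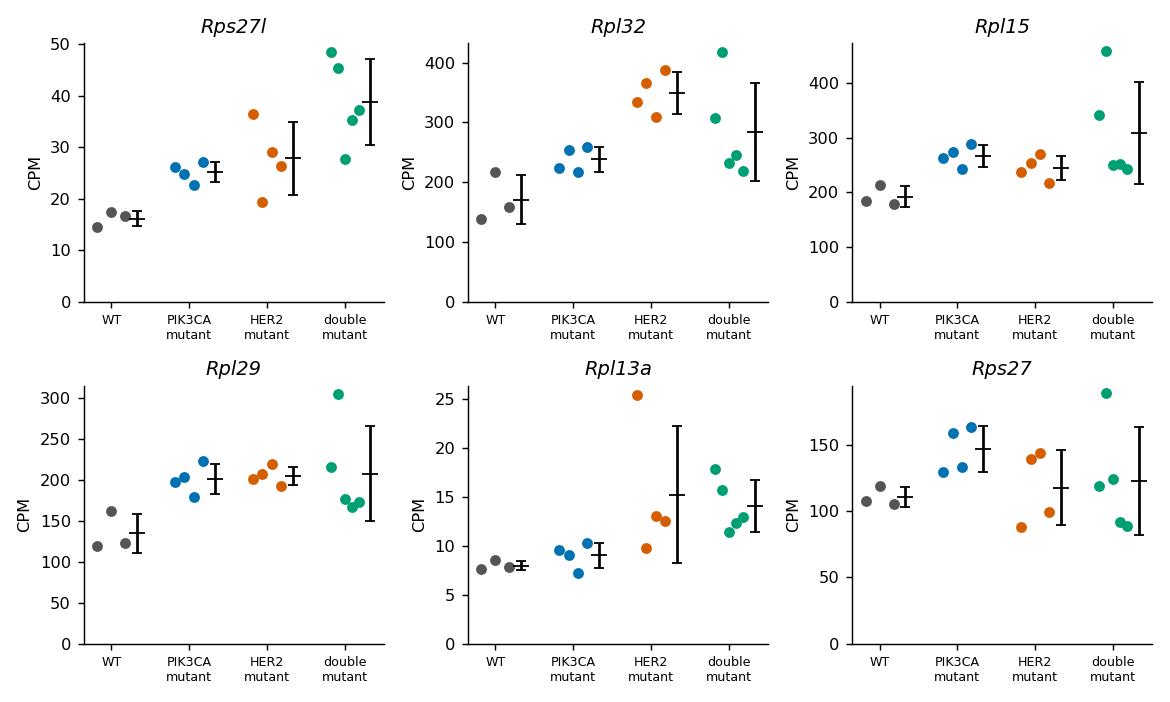
CPM of the 5 genes that passed the test in a comparison with WT, and of Rps27, in each sample by genotype; points are samples, and the bar beside them is the mean with 1 SD. All 13 mutant samples of Rps27l lie above its 3 WT samples, whose highest value is 17.4 CPM, while the Rps27 samples overlap.

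The 3 proteins of the stalk, the arm of the large subunit that recruits elongation factors, did not pass in any comparison. Rplp0 stood at 640 ± 85.1 CPM (SD, n = 3) in WT, 905 ± 86.0 (n = 4) in PIK3CA mutant, 806 ± 76.5 (n = 4) in HER2 mutant and 888 ± 262 (n = 5) in double mutant organoids. Its log2 fold changes against WT were 0.50, 0.33 and 0.47, and those of Rplp1 0.38, 0.22 and 0.50. Rplp2 had another pattern, at 177 ± 16.4, 208 ± 21.8, 239 ± 40.4 and 178 ± 35.4 CPM in the same order. Its log2 fold change between the double mutant and HER2 mutant organoids was -0.43 (SE 0.148, adjusted p = 0.134). Its interaction, the double-mutant change minus the sum of both single-mutant changes, was -0.66 (SE 0.227, adjusted p = 0.188).

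Several proteins are known for roles beyond the ribosome, and none of these passed. Rps6, the substrate of S6 kinase below mTORC1, was at 327, 369 and 332 CPM in WT, 398, 433, 393 and 472 CPM in PIK3CA mutant, 338, 437, 462 and 222 CPM in HER2 mutant and 399.5, 618, 406, 353 and 340 CPM in double mutant organoids. All PIK3CA mutant samples were above WT, HER2 mutant samples lay on both sides, and the log2 fold changes were 0.31, 0.09 and 0.30. Rpl5 and Rpl11, which bind Mdm2 as part of the 5S particle, had values of 0.53 and 0.39 in PIK3CA mutant, 0.36 and 0.07 in HER2 mutant and 0.45 and 0.43 in double mutant organoids. Rpsa, also known as the laminin receptor precursor, had 0.47, 0.41 and 0.54, with a lowest adjusted p of 0.126 in the double mutant. For Rps19, the gene most often mutated in Diamond-Blackfan anemia, they were 0.27, 0.59 and 0.37, and for Rpl39, which lines the exit tunnel, 0.44, 0.58 and 0.54. For Rps4x, of the X chromosome, the values were 0.20, 0.13 and -0.08.

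Not all paralogs of canonical genes followed the direction of the set. Rpl22l1, the copy of Rpl22, was at 7.35 ± 0.784 CPM (SD, n = 3) in WT, 9.63 ± 1.26 (n = 4), 7.60 ± 1.90 (n = 4) and 11.3 ± 2.57 CPM (n = 5) in the mutants in the order above. All double-mutant samples were above WT, with a log2 fold change of 0.62 (SE 0.228, adjusted p = 0.0925), while Rpl22 itself had 0.51 (SE 0.253, adjusted p = 0.214). Rpl7l1, the copy of Rpl7 known for a part in ribosome assembly, had -0.16, -0.25 and -0.08 against WT, where Rpl7 had 0.45, 0.35 and 0.39. Rpl3l, the copy of Rpl3 known from striated muscle, was low throughout, at 1.19, 1.18 and 0.851 CPM in WT and 0.496, 0.734, 0.510, 0.665 and 0.253 CPM in the double mutant. All double-mutant samples lay below WT, with a log2 fold change of -1.01 (SE 0.324, adjusted p = 0.0547), which DESeq2 called at an adjusted p of 0.0250. Rpl3 had 0.13, -0.04 and 0.05. Rps4l, the copy of Rps4x, is not annotated as protein coding and so is no member of the set. Its level was 2.24, 3.46 and 2.62 CPM in WT and 0.434, 0.212, 0.423 and 0.778 CPM in HER2 mutant organoids, and it fell by 2.58 on the log2 scale there (SE 0.687, adjusted p = 0.0272).

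In all, 5 genes had negative log2 fold changes in PIK3CA mutant, 7 in HER2 mutant and 8 in double mutant organoids. Rpl3l, Rpl24, Rpl7l1 and Rps28 were negative in all 3. Rps28, of the small subunit, was at 157 ± 14.4 CPM (SD, n = 3) in WT and 126 ± 25.8 CPM (SD, n = 5) in the double mutant, a log2 fold change of -0.32 (SE 0.161, adjusted p = 0.215). Rps10 had the second largest positive value in the double mutant, 1.17 (SE 0.484, adjusted p = 0.132), from samples at 3.65, 12.4, 9.87, 3.399 and 2.995 CPM against 2.83, 3.04 and 2.75 CPM in WT. Replicates 2 and 3 of the double mutant carried this difference, and the counts of Rps10 are among the 3 uncertain ones.

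Between mutant genotypes the medians of the set lay near 0. In the double mutant against HER2 mutant organoids the median log2 fold change was 0.03, 0 of 81 genes passed in edgeR's quasi-likelihood test, where 2.5% of all genes did, and 3 had an unadjusted p under 0.05 (3.7%, against 17.8% of all genes). In 0 genes did the samples of these genotypes not overlap, against 2.21% of all genes with the double mutant above and 2.38% with it below. Against PIK3CA mutant organoids the median was 0.01, with 0 passing against a background of 0.672% and 3 at an unadjusted p under 0.05 (3.7%, against 12.4%). All double-mutant samples were above all PIK3CA mutant samples in 2 genes, Rps27l and Rpl13a, against 3.42% of all genes, and below in 0, against 4.5%. Between HER2 and PIK3CA mutant organoids it was -0.05, with 0 passing against 4.41% (2.21% higher, 2.2% lower) and 2 at an unadjusted p under 0.05 (2.47%, against 19.4%). DESeq2 and limma also called 0 in these 3 comparisons. Without double-mutant replicate 2 the medians against HER2 and PIK3CA mutant organoids were -0.13 and -0.15. The genes nearest to a call were Rpl13a at 0.75 (SE 0.249, adjusted p = 0.0999) and Rpl32 at 0.55 (SE 0.193, adjusted p = 0.117) in HER2 against PIK3CA mutant organoids, where all HER2 mutant samples of Rpl32 were above all PIK3CA mutant samples. On the negative side they were Rpl22 at -0.43 and Rpl23a at -0.39, with adjusted p of 0.357 and 0.439. The separation seen for Rpl32 held for 1 of the 81 genes, against 5.63% of all genes, and the opposite one for Rpl22, Rpl35a and Rpl6, against 6.87%. Without double-mutant replicate 2, Rplp2 passed as lower than in HER2 mutant organoids, at -0.55 (adjusted p = 0.0429), and without HER2 replicate 2, 1 gene passed as higher than in PIK3CA mutant organoids.

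The interaction had a median log2 value of -0.29 over the 81 genes and 0.01 over all genes, and was negative for 75 of the 81. Without double-mutant replicate 2 the median over the 81 genes was -0.455. For most of the set the double-mutant change was thus smaller than the sum of both single-mutant changes. A positive shift shared by all mutant samples against WT, as from tissue source, also makes this value negative. Such a shift and an interplay of both mutations cannot be told apart here. No single interaction passed: 0 of 81 did in edgeR's quasi-likelihood test against 1.06% of all genes, 5 had an unadjusted p under 0.05 (6.17%, against 13.6% of all genes), and DESeq2 and limma also called 0. The lowest values were -0.78 (SE 0.278, adjusted p = 0.215) for Rpl32 and -0.66 for Rplp2, and the highest 0.41 (SE 0.374, adjusted p = 0.7) for Rpl24. The interaction uses the WT samples once more, so it is not independent of the comparisons above. In the fit without double-mutant replicate 2, 1 gene was called as lower, Rpl32 at -0.96 (adjusted p = 0.0484).

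The genes of the set moved together from sample to sample. Over the 16 samples, the log2 CPM of a gene had a median Pearson r of 0.864 with the mean of the other tested genes, and 51 of the 81 had an r above 0.8. Within genotypes the median was also 0.864, with 57 above 0.8. The highest was Rps3 at 0.966, and the lowest Rpl7l1 at -0.269, Rpl3l at -0.04 and Rpl24 at 0.03. Rps27l had 0.56 and Rpl13a 0.41. All points share the libraries and their scaling, and these correlations are descriptions. The median SD within genotypes was 0.27 on the log2 scale, against 0.25 for 1162 genes at least as abundant as the lower quartile of the set.

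Other parts of the translation machinery were read from lists chosen with earlier results of these data known. Of 15 translation factors, many of whose messenger RNAs also carry the TOP motif, 0 passed in edgeR's quasi-likelihood test against WT, with 4, 4 and 3 at an unadjusted p under 0.05 (26.7%, 26.7% and 20%, against 16.8%, 25.7% and 27.1% of all genes). Positive values were found for 15, 14 and 15 of them and the medians were 0.27, 0.23 and 0.36, near those of the ribosomal proteins. Eef1a1, the elongation factor that delivers transfer RNA, was at 5021 ± 327 CPM (SD, n = 3) in WT and 6011 ± 232 (n = 4), 5774 ± 821 (n = 4) and 6160 ± 1526 CPM (n = 5) in the mutants.

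Ribosome assembly genes did not share the pattern in PIK3CA mutant organoids. Of 41 listed genes 40 were tested, and the medians were -0.12, 0.13 and 0.13 against WT. In PIK3CA mutant organoids 0 passed and 31 were negative. The 1 and 2 calls in HER2 mutant and double mutant organoids were 2.5% and 5% of the list, below the 10.4% and 11.8% of all genes. In HER2 mutant organoids 1 rose, Nvl, an ATPase of large-subunit assembly, at 0.33 (SE 0.0984, adjusted p = 0.0441). Those that rose in the double mutant were 2, Npm1, a nucleolar chaperone, at 0.61 (SE 0.176, adjusted p = 0.0343) and Rrn3, an initiation factor of RNA polymerase I, at 0.37 (SE 0.112, adjusted p = 0.0404). Npm1 was at 235, 239 and 237 CPM in WT and 435, 484, 298, 292 and 299.8 CPM in the double mutant. Nop56, a core protein of the particles that methylate ribosomal RNA, rose by 0.54 (SE 0.134, adjusted p = 0.0320) in HER2 mutant and by 0.58 (SE 0.128, adjusted p = 0.0499) in double mutant organoids, both against PIK3CA mutant organoids.

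Of 17 genes of mTORC1 and TOP control, 0, 2 and 4 passed against WT in PIK3CA mutant, HER2 mutant and double mutant organoids. These shares were 0%, 11.8% and 23.5%, where 4.52%, 10.4% and 11.8% of all genes passed. Myc was at 41.0, 86.8 and 63.4 CPM in WT, 89.8, 77.7, 69.9 and 109.7 CPM in PIK3CA mutant, 214, 197, 184 and 219 CPM in HER2 mutant and 97.5, 254, 186, 112 and 109 CPM in double mutant organoids. It rose by 1.67 in HER2 mutant organoids (SE 0.322, adjusted p = 0.00504), 3.19-fold, and by 1.23 (SE 0.287, adjusted p = 0.0254) against PIK3CA mutant organoids. It also rose in the double mutant, by 1.25 (SE 0.307, adjusted p = 0.0148), a gene named there after its value was seen. Larp4, which binds poly(A) tails and is known to stabilise ribosomal protein transcripts, rose by 0.63 (SE 0.166, adjusted p = 0.0266) in HER2 mutant and 0.86 (SE 0.162, adjusted p = 0.00287) in double mutant organoids. Eif4ebp1, a brake on cap-dependent translation that mTORC1 releases, rose by 1.24 in the double mutant (SE 0.266, adjusted p = 0.00655), and its relative Eif4ebp2 fell by 0.52 (SE 0.1502, adjusted p = 0.0342). Larp1, the TOP-binding protein, was at 299 ± 14.3 CPM (SD, n = 3) in WT and 316 ± 26.5 (n = 4), 348 ± 45.5 (n = 4) and 324 ± 38.0 CPM (n = 5) in the mutants and did not pass in any comparison with WT.

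Mitochondrial ribosomal protein genes, which serve the separate ribosome of mitochondria, had medians near 0. Of 78 genes 77 were tested, and the medians were -0.09, -0.06 and 0.03 against WT and 25, 30 and 41 positive values. Mrps6 fell in PIK3CA mutant organoids by 1.25 on the log2 scale (SE 0.295, adjusted p = 0.0218) and in HER2 mutant organoids by 1.23 (SE 0.295, adjusted p = 0.0161), and Mrpl38 rose by 0.77 in HER2 mutant organoids (SE 0.182, adjusted p = 0.0153). The others did not pass. These calls were 1.3% of the tested list in PIK3CA mutant and 2.6% in HER2 mutant organoids, below the 4.52% and 10.4% of all genes. The 173 tested pseudogenes of ribosomal proteins had medians of 0.27, 0.28 and 0.30, and 2 rose, both in HER2 mutant organoids. That was 1.16% of the pseudogenes, against 10.4% of all genes.

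**Figure D5:**
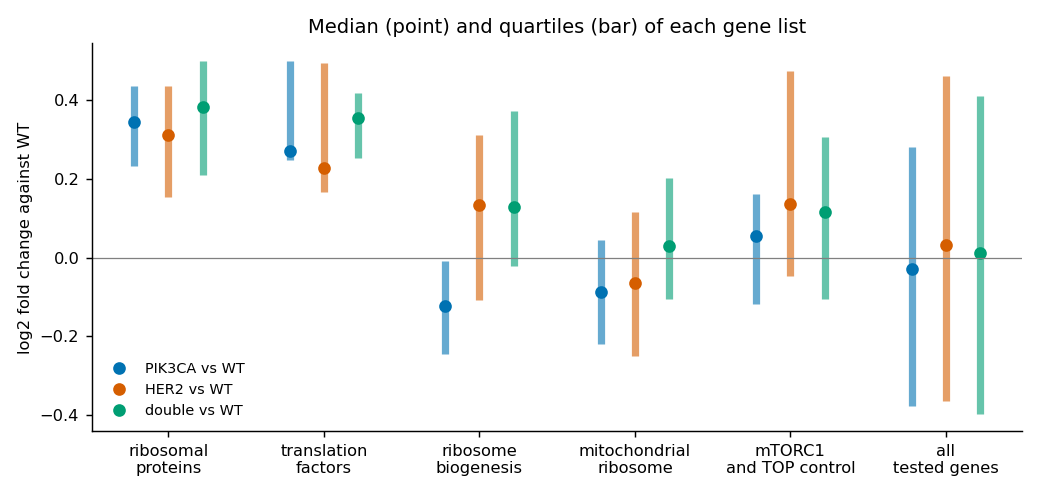
Median (point) and quartiles (bar) of log2 fold changes against WT of the 81 ribosomal protein genes, 15 translation factors, 40 ribosome assembly genes, 77 mitochondrial ribosomal protein genes, 17 genes of mTORC1 and TOP control, and all 24252 tested genes, in the 3 mutant genotypes. The medians of the ribosomal proteins (0.31 to 0.38) and translation factors (0.23 to 0.36) lie above those of the other lists.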

How the data were processed

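The authors deposited whole-number read counts per gene, and a second table of normalized signal. Each normalized value equalled the count divided by a median-of-ratios size factor (largest relative difference 4.98e-10). The submitters' processing notes name mm10, bcl2fastq 2.20, STAR 2.0.4b, Subread, featureCounts 1.4.5 and DESeq2 1.33.5. Strand and multi-mapping settings are not given in the sources used here. Of 55774 entries, 287 exact repeats were dropped.

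Counts of all 16 samples were fitted with edgeR 4.0.16 (R 4.3.3) with genotype as the only factor, filterByExpr (24252 genes kept), TMM scaling and the two-sided quasi-likelihood test. P-values were adjusted by Benjamini-Hochberg over all kept genes per comparison. CPM uses TMM library sizes, and SE is the absolute log2 fold change divided by the square root of F. Alternatives used DESeq2 1.42.0 and limma 3.58.1 (on log2 of the normalized values plus 1), other scalings, filters, offsets and samples left out. The steps were tested on simulated data. Named genes are the 3 furthest from 0 in each direction among those passing (the 2 furthest where none passed), the stalk, the paralogs, the 3 highest per length and a fixed list. Some genes that these rules name are not reported here. The genes and lists were chosen with earlier results of these data known. Annotation was GENCODE M21 (GRCm38), and 99.7% of kept genes had a length.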

Additional observations from a re-analysis of the deposited data

Results flagged for a closer look

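Among 87 checks of a group of 4 or 5 samples, 4 found a sample far from the rest of its group, where chance gives about 1 in 20. Double-mutant replicate 2 was high for Rps6, the S6 kinase substrate, at 618 CPM against 340 to 406 CPM in the other 4 samples. It was also high for Rps28 of the small subunit, at 171 CPM against 109 to 121 CPM. This sample had the highest share of counts on ribosomal protein genes, 3.69%. HER2 mutant replicate 1 was high for Rps4x at 515 CPM, against 303 to 338 CPM, and HER2 mutant replicate 2 for Rpl3l at 1.08 CPM, against 0.604 to 0.623 CPM.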

How the results depend on the processing

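The medians of the 81 genes against WT stayed positive under all alternatives run, from 0.22 (double mutant without its replicate 2) to 0.51, but the number of calls moved. In PIK3CA mutant organoids it was 0 at first and 36 when only the 2 genotypes were fitted. It was 3 with an offset for length and GC content, and 0 in every fit without a sample. Over all genes the number was 1096, 4136 and 1426 in the first 3 of these fits, and 396 to 1043 without a sample. In HER2 mutant organoids the calls in the set were 3, then 1 with only the 2 genotypes and 6 with the offset. Without a sample they were 0 to 6. Over all genes the number was 2518, 541 and 2840 in the first 3 of these fits, and 733 to 2693 without a sample. In the double mutant the calls in the set were 4, then 10 with DESeq2, 2 with only the 2 genotypes and 13 with the offset. Without a sample they were 1 to 8. Over all genes the number was 2850, 3978, 2677 and 3577 in the first 4 of these fits, and 1173 to 2961 without a sample. Among the mutants and for the interaction, leaving out a sample gave 0 to 1 calls in the set and 17 to 1166 over all genes. The offset moved the median of all genes to 0.11, 0.12 and 0.15 against WT. The causes were not tested.

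The replicate numbers showed no pairing across all genotypes: same-numbered samples correlated between -0.16 and 0.27 in their deviations. Between HER2 mutant and double mutant organoids all 4 such pairs were positive, at 0.071 to 0.273 (mean 0.157, against -0.041 for differently numbered pairs). Between WT and PIK3CA mutant organoids they were 0.039 to 0.046. In the remaining pairs of genotypes the means were -0.052 to -0.005. With a replicate block the calls in the double mutant were 8, and with block and offset 21. Over all genes they were 2358 and 2901, against 2850 at first. In PIK3CA mutant organoids block and offset gave 1 call in the set and 1006 over all genes.

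Values near 0 changed sign. In HER2 mutant organoids Rpl22l1 was -0.0595 with the offset, -0.0074 with the replicate block and -0.11 with both, and -0.0388 to 0.2138 without a sample. Rpl3 was 0.0183 with upper-quartile scaling, 0.0095 with the block, 0.0104 with block and offset, and -0.1182 to 0.0552 without a sample. Leaving out a sample gave -0.0446 to 0.2673 for Rps6, -0.0325 to 0.2143 for Rpl11, -0.0662 to 0.2174 for Rps4x, -0.0154 to 0.2695 for Rpl22 and -0.0209 to 0.2068 for Rps27. In the double mutant Rplp2 was -0.0016 with the offset, -0.0023 with block and offset, and -0.1167 to 0.0752 without a sample. Rpl7l1 was 0.0557 with the offset and -0.2104 to 0.0185 without a sample, and Rps4x was 0.0167 with the offset, 0.0297 with the block and 0.118 with both. Without a sample Rps27 was -0.0608 to 0.2443, Rpl3 -0.0385 to 0.1212, and the interaction of Rps10 -0.0034 to 0.7155.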
